A study of Mus musculus with 14 samples.

Results

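The genes described here encode the ADAM and ADAMTS proteases, the matrix metalloproteinases (Mmp) and the tissue inhibitors that bind them (Timp), in heart and hippocampus of young and adult mice. Members were all genes whose symbol starts with Adam, Adamts, Mmp or Timp followed by a digit. Only probe sets annotated to 1 gene were used, where a probe set is the group of short probes that reads a transcript on the array. This gave 65 of the 18194 genes on the array, of which 28 were Adam, 15 Adamts, 18 Mmp and 4 Timp genes. They were read by 116 of the 45101 probe sets. A gene with several probe sets, as 30 of the 65 had, was represented by the probe set with the highest mean over the arrays, and 35 had a single probe set.

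These proteases hold a zinc ion in their active site. ADAM proteins span the cell membrane, and several of them cut growth factors, adhesion molecules and receptors off the cell surface, a step called shedding. Others have lost the catalytic site and act as adhesion molecules or receptors, as in the brain, and a large group is best known from the testis and from sperm. ADAMTS proteases are secreted and cut proteoglycans and procollagens, and matrix metalloproteinases cut collagens, gelatin, elastin and many non-matrix proteins. TIMP proteins block the active site. In the developing heart and brain these enzymes are known for remodelling of the matrix around migrating cells, growing vessels and synapses.

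RNA of both tissues from C57/BL6 mice was read on 14 Affymetrix mouse genome arrays with a single dye. Pups were 7 days old, their sex was not given, and each tissue had 3 biological replicates with 1 array each. Adults were males aged 10 weeks, and each adult tissue had 2 biological replicates, read on a pair of technical arrays that were averaged here. No animal carried a transgene or a treatment. The methods state that adult RNA was bought as total RNA from 1 mouse, whereas mRNA was isolated from pup tissue in the laboratory. In any comparison of ages, age therefore cannot be told apart from RNA source and preparation, nor from sex. Other labels count the 4 adult arrays of a tissue as biological replicates, so a p-value that involves adults covers only how far these particular samples scatter, and that scatter may be technical.

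Array values are log2 intensities, on which a difference of 1 is a 2-fold change. Values ranged from 2.67 to 16.0, and a level on one probe set cannot be set against a level on another. Samples of a group correlated at r = 0.932 to 0.968 over all probe sets and technical pairs at 0.931 to 0.958. The 18 hybridization control probe sets averaged 12.8 to 13.4 in pup samples and 10.6 to 11.0 in adult samples. Their part in the age differences was not tested. Cardiomyocyte markers averaged 14.1 to 15.6 in heart samples and 8.12 to 11.5 in hippocampus samples, where the adult samples read 8.12 and the pup samples 8.80 to 11.5. Neuron markers averaged 10.9 to 12.2 in hippocampus and 9.48 to 9.97 in heart. Of these 5 markers, Snap25, Stmn2 and Tubb3 passed the test below as higher in hippocampus at both ages. The remaining 2, Syt1 and Rbfox3, did not pass at either age. In 7 members a technical pair differed by over 2, with the largest gap of 4.40 in Timp1 of adult heart.

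A gene was called higher or lower when its Benjamini-Hochberg adjusted p in limma, over all 18194 genes, was under 0.05. Between pup and adult heart, 6 of the 65 genes rose and 3 fell (9.23% and 4.62%), against 11.2% and 9.38% of all genes. With the arrays rescaled by their percentile range or by quantiles the split was 5 and 4. Between pup and adult hippocampus, 4 rose and 4 fell (6.15% each), against 8.63% and 7.44% of all genes. In pups, 3 genes were higher and 5 lower in hippocampus than in heart (4.62% and 7.69%), against 8.27% and 7.43% of all genes, and the split was 3 and 3 under either rescaling. In adults, 7 were higher and 8 lower in hippocampus (10.8% and 12.3%), against 9.46% and 10.2%. These shares were near or below those of all genes, or a little above them in adults, so the counts are no result about the family, and what follows concerns single genes. Median differences of the members were 0.08, 0.21, -0.30 and -0.05 in these 4 comparisons, beside 0.09, 0.10, -0.10 and -0.03 over all genes.

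Among the 9 shedding and other somatic Adam genes, Adam9 fell with age in both tissues, Adam10 rose in heart, and Adam12 rose in hippocampus. Of all genes, 11.2% rose and 9.38% fell in heart, and 8.63% rose and 7.44% fell in hippocampus. Adam9 encodes a widely expressed membrane protease. It read 10.95, 10.75 and 11.46 in pup hearts and 9.28 and 9.21 in adult hearts. In hippocampus it read 10.68, 10.39 and 10.86 in pups and 9.57 and 9.58 in adults. Every adult sample lay below every pup sample of either tissue. The fall was 1.81 ± 0.26 (SE) in heart, or 3.51-fold, with an adjusted p of 0.00256. In hippocampus the difference was -1.07 ± 0.26 (adjusted p = 0.0259). The heart call was kept without any single sample, and the hippocampus call was lost without pup hippocampus replicate 1 (adjusted p = 0.0643), pup replicate 3 (0.0792), adult hippocampus replicate 1 (0.131) or adult replicate 2 (0.115).

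Adam10 encodes the protease that sheds Notch, N-cadherin and the amyloid precursor protein. Its log2 values were 12.40, 12.47 and 11.04 in pup hearts and 13.46 and 13.67 in adult hearts, so the ages did not overlap although pup replicate 3 lay well below the other pup hearts. Hippocampus read 11.63, 11.05 and 11.18 in pups and 11.80 and 12.00 in adults. Adam10 was 3.02-fold higher in adult than in pup heart (1.59 ± 0.42, adjusted p = 0.0269), and lower in adult hippocampus than in adult heart (-1.67 ± 0.46, adjusted p = 0.0328). The age call was lost without adult heart replicate 1 (0.108) or replicate 2 (0.14), and the tissue call on leaving out any 1 of the 4 adult samples (0.104 to 0.146). A dimmer probe set of Adam10 gave the opposite result in heart, from a mean of 9.15 in pups to 7.36 in adults (-1.79, adjusted p = 0.0121 over all probe sets). The direction of Adam10 in heart therefore rests on which probe set is read. A further probe set rose with age in hippocampus (1.16, adjusted p = 0.0162 over all probe sets). It was also lower in pup hippocampus than in pup heart (-1.17, adjusted p = 0.0071 over all probe sets). The brightest gave 0.61 and -0.68 there without a call.

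Adam17, the enzyme that releases tumour necrosis factor, passed no test. It read 14.86, 14.10 and 13.88 in pup hearts, 14.92 and 14.81 in adult hearts, 13.36, 11.25 and 14.12 in pup hippocampi and 14.84 and 14.79 in adult hippocampi. Pup hippocampi spread from 11.25 to 14.12, while the adult samples of both tissues lay close together. Its age difference in hippocampus was 1.90 ± 0.70 (adjusted p = 0.0963). Adam28, a protease first known from lymphocytes, was lower in pup hippocampus than in pup heart. Hippocampus values were 8.11, 7.31 and 8.01 and heart values 9.94, 9.15 and 8.83, without overlap (-1.50 ± 0.33, adjusted p = 0.0135). In adults the difference was -1.06 (adjusted p = 0.0964). The call in pups was lost without pup hippocampus replicate 2 (0.0522), and with the probe set designed for 1 transcript, which gave -0.38 (0.432).

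Adam12 encodes an adhesion protein and protease of muscle and bone precursors. It stayed between 8.64 and 9.52 in every sample other than the adult hippocampi, which read 10.88 and 10.75. In hippocampus it was 4.01-fold higher in adults than in pups (2.00 ± 0.20, adjusted p = 0.00102), and in adults it was 2.60-fold higher in hippocampus than in heart (adjusted p = 0.00316). Neither call was lost when a sample was left out. The other probe set of Adam12 disagreed: it was lower in adult hippocampus (6.72) than in adult heart (9.12), a difference of -2.40 with an adjusted p of 0.00895 over all probe sets. Both differences passed the test, so these arrays give no single direction for Adam12 between adult tissues. For age in hippocampus the other probe set gave -0.62 without a call (adjusted p = 0.4 over all probe sets). The rise of Adam12 with age therefore rests on the brighter probe set.

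Of the 3 brain genes without a catalytic zinc site, Adam23 gave the largest tissue differences among the 65 members in pups. ADAM23 binds integrins and the secreted neuronal protein LGI1. Pup hippocampi read 13.27, 12.92 and 12.94 and pup hearts 9.29, 8.85 and 10.31, a difference of 3.56 ± 0.35, or 11.8-fold (adjusted p = 0.000161). Adult hippocampi read 11.38 and 11.88 and adult hearts 8.84 and 8.90, a difference of 2.76 ± 0.43 (adjusted p = 0.0029). The tissues did not overlap at either age, and leaving out any sample kept both calls. A dimmer probe set was also higher in hippocampus at both ages, by 1.07 and 2.74. Adam23 fell by 1.41 ± 0.40 with age in hippocampus (adjusted p = 0.0409), whereas that dimmer probe set rose by 1.19 (adjusted p = 0.03 over all probe sets), and the call was lost on leaving out any 1 of the 5 hippocampus samples (adjusted p of 0.0803 to 0.234).

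The related Adam11 and Adam22 were not called on their brightest probe sets in any comparison. Adam11 differed by -0.01 between pup tissues and by 0.61 between adult tissues. A dimmer probe set of Adam11 was higher in hippocampus in pups (2.70, adjusted p = 2.59e-05) and adults (1.40, adjusted p = 0.00495, both over all probe sets). Adam22, another receptor of LGI1, was 0.32 and 0.94 higher in hippocampus without passing the test. Its dimmer probe set went the other way in adults, with a mean of 8.45 in hippocampus and 11.4 in heart (-2.97, adjusted p = 0.000375 over all probe sets). With age in heart the dimmer probe sets of Adam11 and Adam22 rose by 1.28 and 2.18 (adjusted p = 0.00554 and 0.00139 over all probe sets). The brightest gave 0.09 and -0.90 there without a call. For Adam22 the dimmer age difference was 2.21 higher in heart than in hippocampus (adjusted p = 0.0211 over all probe sets). Lgi1 itself was 0.90 ± 0.22 higher in adult hippocampus than in adult heart (adjusted p = 0.0214).

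Of the 16 Adam genes best known from testis, 1 rose with age in heart and 3 rose in hippocampus, beside 11.2% and 8.63% of all genes, while 1 was lower in pup hippocampus than in heart, beside 7.43%. In adults 4 were higher and 1 lower in hippocampus, beside 9.46% and 10.2%. Several of these genes are close relatives of each other, and whether their probe sets also bind relatives was not tested. Each of the genes called here had 1 probe set.

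Adam21 read 7.64, 7.81 and 7.31 in pup hippocampi and 11.00 and 10.48 in adult hippocampi. Heart values were 8.23, 8.51 and 9.49 in pups and 8.78 and 8.59 in adults. The adult hippocampi stood above all other samples and the pup hippocampi below them. Adam21 was 8.92-fold higher in adult than in pup hippocampus (3.16 ± 0.38, adjusted p = 0.00168), the largest age difference of any member in either tissue, and the call was kept without any single sample. It was lower in hippocampus than in heart in pups (-1.15 ± 0.34, adjusted p = 0.0472) and higher in adults (2.06 ± 0.41, adjusted p = 0.00849). The pup call was lost under both rescalings (0.0655 and 0.0683) and on leaving out any 1 pup hippocampus, or pup heart replicate 2 or 3 (0.0668 to 0.142). The adult call was lost without adult hippocampus replicate 1 (0.062) or adult heart replicate 2 (0.0568).

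Adam5 lies near Adam18 and Adam9 in a run of 5 closely placed genes, in the order Adam18, Adam3, Adam5, Adam32 and Adam9. The 3 called members of this run differed in pattern. Adam5 read 8.13, 8.21 and 7.85 in pup hearts and 9.31 and 9.36 in adult hearts, with all hippocampi between 7.00 and 7.81. It rose in heart by 1.27 ± 0.28 (adjusted p = 0.0139) and was lower in adult hippocampus than in adult heart (-1.90 ± 0.31, adjusted p = 0.00326). The age call was lost without adult heart replicate 1 (0.0795) or 2 (0.0801), and the tissue call was not. Adam18 rose in hippocampus, from 8.74, 8.87 and 8.76 in pups to 11.58 and 9.50 in adults (1.75 ± 0.50, adjusted p = 0.0454). The adult replicates were over 2 apart and a technical pair differed by 3.38. Without adult hippocampus replicate 1 the difference was 0.71 (adjusted p = 0.235), and the call was also lost under both rescalings (0.0548 and 0.0558) and on leaving out any 1 pup hippocampus (0.0923 to 0.105). The higher level of Adam18 in adult hippocampus than in adult heart (1.88 ± 0.55, adjusted p = 0.0416) was lost without adult hippocampus replicate 1 (0.151), adult heart replicate 1 (0.143) or replicate 2 (0.152).

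Adam6a rose in hippocampus from 4.70, 4.87 and 5.23 to 6.51 and 6.18 (1.41 ± 0.27, adjusted p = 0.0098), a call lost without adult hippocampus replicate 1 (0.0857). These values lie near the bottom of the array's range, where no detection call was at hand. In adults, Adam24 read 7.94 and 7.85 in hippocampus and 7.06 and 6.85 in heart (0.94 ± 0.23, adjusted p = 0.0201). Adam34 read 8.46 and 8.08 in hippocampus and 6.60 and 6.71 in heart (1.61 ± 0.49, adjusted p = 0.0484). Both calls were lost on leaving out any 1 of the 4 adult samples, at 0.0601 to 0.113 for Adam24 and 0.121 to 0.199 for Adam34.

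**Figure D1:**
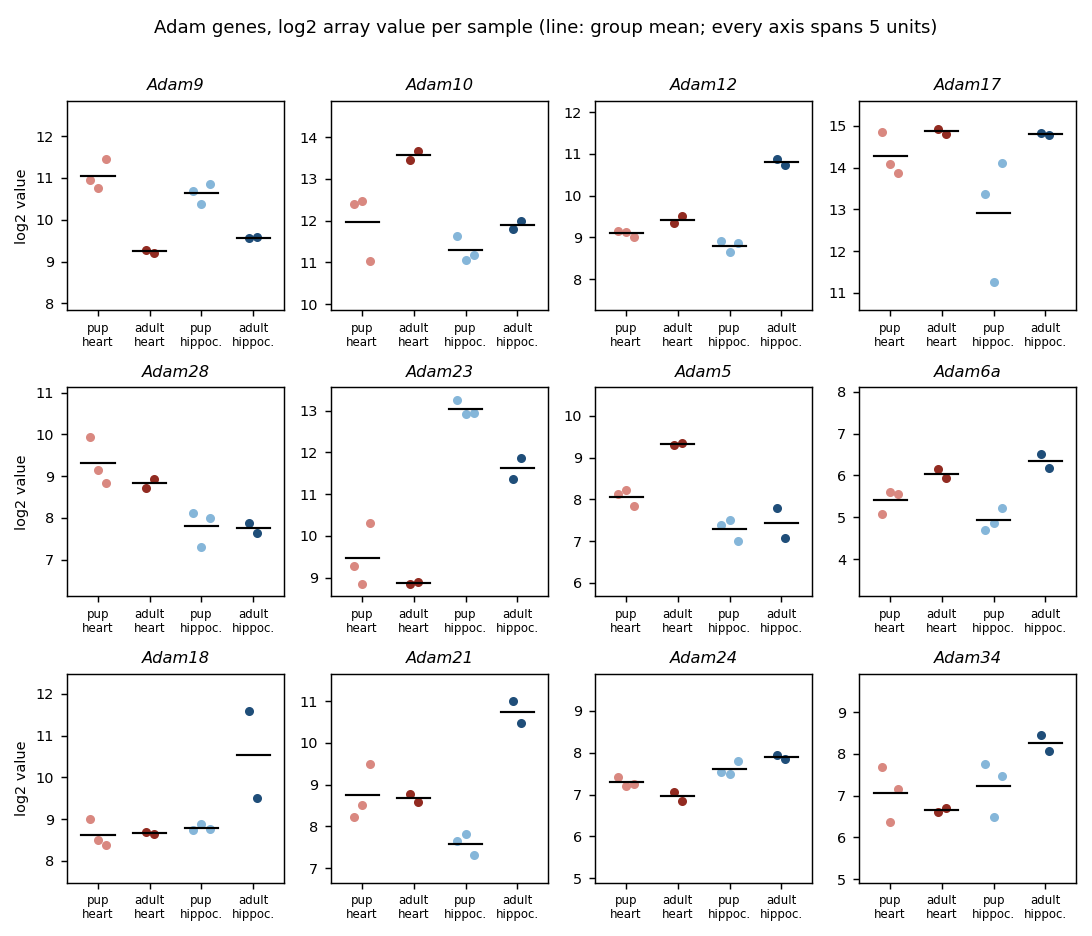
Log2 array values of 12 Adam genes in each sample, by group, with the group mean as a line; each vertical axis spans 5 log2 units and starts where the gene's values lie. Adam9 is lower in the adult samples of both tissues, Adam23 is higher in hippocampus at both ages, and Adam21 is at 11.00 and 10.48 in adult hippocampi against 7.31 to 7.81 in pups.

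Of the 15 secreted Adamts genes, 2 rose and 2 fell with age in heart, against 11.2% and 9.38% of all genes. On the brightest probe sets none was called by limma between pup and adult hippocampus, where 4 had an unadjusted p under 0.05. Of the 7 proteoglycanases, which cut aggrecan, versican and brevican, Adamts4 rose and Adamts1 fell in heart. Adamts4 read 7.63, 7.53 and 7.35 in pup hearts and 9.38 and 9.90 in adult hearts. Hippocampi stayed between 6.64 and 7.10 at both ages. It was 4.38-fold higher in adult than in pup heart (2.13 ± 0.25, adjusted p = 0.00118) and 7.09-fold lower in adult hippocampus than in adult heart (-2.83 ± 0.27, adjusted p = 0.000334), and neither call was lost without any single sample. The second probe set of Adamts4 was not called in either comparison, with 0.05 for age in heart (adjusted p = 0.945) and -1.06 between adult tissues (adjusted p = 0.0915).

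Adamts1 read 9.33, 9.77 and 10.29 in pup hearts and 8.14 and 8.22 in adult hearts. Adult hearts lay below all other samples, and hippocampi read 8.75 to 9.40. The fall was 1.62 ± 0.31, or 3.07-fold (adjusted p = 0.00798), and the call was lost without adult heart replicate 1 (adjusted p = 0.0624). Its neighbour on the chromosome, Adamts5, was not called (0.53 ± 0.26 in heart, adjusted p = 0.187). The closely placed genes Adamts15 and Adamts8 were both called as lower in hippocampus, Adamts15 in pups and Adamts8 in adults. Adamts15 read 8.66, 8.08 and 8.32 in pup hippocampi and 9.47, 9.48 and 9.25 in pup hearts (-1.05 ± 0.21, adjusted p = 0.00843), and no sample left out ended that call. Adamts8 read 8.06 and 7.65 in adult hippocampi and 8.95 and 9.28 in adult hearts (-1.26 ± 0.37, adjusted p = 0.0423). It lost its call under both rescalings (0.0584 and 0.0596) and on leaving out any 1 of the 4 adult samples (0.0873 to 0.207).

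Adamts7 cuts cartilage oligomeric matrix protein and acts in vascular smooth muscle. It rose in heart from 7.31, 7.46 and 6.77 to 8.36 and 8.05 (1.03 ± 0.27, adjusted p = 0.0268), a call lost without adult heart replicate 1 (0.17) or 2 (0.0751). In adult hippocampi it read 6.45 and 6.41, so it was 3.42-fold lower there than in adult heart (-1.77 ± 0.29, adjusted p = 0.00364), and that call was kept without any single sample. Adamts12, close to Adamts7 in sequence, went the other way in heart. Pup hearts read 10.72, 10.53 and 11.59 and adult hearts 8.97 and 8.29, a difference of -2.32 ± 0.52, or 4.98-fold (adjusted p = 0.0143). It was also higher in pup heart than in pup hippocampus, which read 9.29, 9.44 and 9.29 (hippocampus minus heart -1.61 ± 0.46, adjusted p = 0.0453). The age call was lost without adult heart replicate 1 (0.0538) or 2 (0.108), and the tissue call under both rescalings (0.0514 and 0.0501) and on leaving out any 1 of the 6 pup samples (0.0564 to 0.114). The second probe set of Adamts12 gave 0.72 for age in heart (adjusted p = 0.297).

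**Figure D2:**
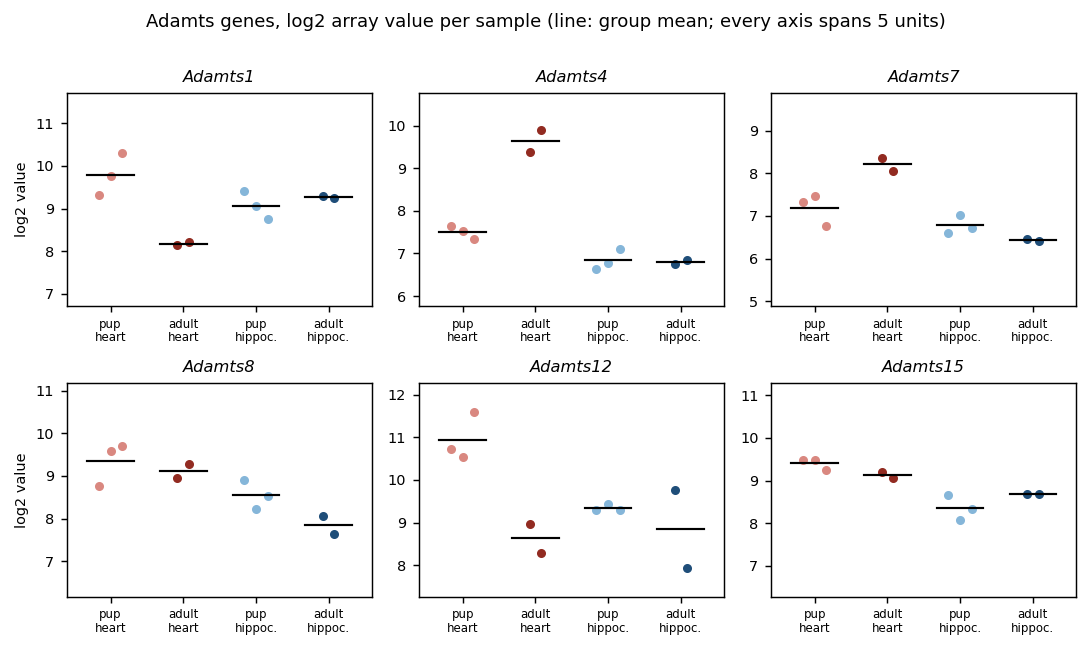
Log2 array values of the 6 called Adamts genes in each sample, with the group mean as a line and 5 log2 units per vertical axis. In adult hearts Adamts4 reads 9.38 and 9.90 and stands above all other samples, while Adamts1 reads 8.14 and 8.22 and stands below them.

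Between pup and adult heart, some markers of stromal cells fell, as did Adamts1, Adamts12 and Adam9, while Adamts4 and Adamts7 rose. Of 6 fibroblast markers, 4 fell (Col1a2, Dpt, Lum and Pdgfra), and the mean of the list went from 13.0 to 13.8 in pup hearts to 11.4 in both adult hearts. The mean of 6 endothelial markers went from 11.4 to between 9.85 and 9.95, with Cdh5, Kdr and Tek called lower. Of 6 mural cell markers Abcc9, Rgs5 and Tagln fell. The rest of these lists were not called in heart, and not all of them went down. The mural marker Kcnj8 read 10.58, 8.37 and 9.27 in pup hearts and 10.32 and 10.51 in adult hearts. No marker can read 0 on this scale. In such bulk samples fewer cells of a type and less RNA per cell cannot be told apart, and the part of these markers in the age differences of Adamts1, Adamts12 and Adam9 was not tested. Markers also moved with age in hippocampus. Col1a2, Dpt and Pdgfra of the fibroblast list, Cdh5 of the endothelial and Rgs5 of the mural list were lower in adults. The rest of these lists were not called, and some read higher in adults. Pecam1 read 10.42, 9.48 and 10.27 in pup hippocampi and 12.22 and 11.41 in adult hippocampi. Col1a1 read 11.45, 11.34 and 11.01 in pup hippocampi and 12.13 and 12.31 in adult hippocampi. Of 5 choroid plexus markers only Ttr was called. Ttr read 15.90, 15.54 and 15.82 in pup hippocampi and 11.46 and 12.03 in adult hippocampi (-4.01 ± 0.42, adjusted p = 0.00121). The other 4 were not called and did not all go down. Among them, Kl read 7.36, 7.13 and 7.36 in pup hippocampi and 8.32 and 8.35 in adult hippocampi. Of 5 neuron markers, Stmn2 and Tubb3 fell, Snap25 rose and 2 were not called. Of 5 astrocyte markers only Gja1 was called, as higher in adults, and 4 were not called. Among these, Gfap read 12.35, 12.55 and 12.23 in pup hippocampi and 11.37 and 10.89 in adult hippocampi. Of 6 cardiomyocyte markers Actc1 and Myh6 fell and 4 were not called. Actc1 read 14.76, 12.49 and 10.31 in pup hippocampi and 8.30 and 8.51 in adult hippocampi. The part of these markers in the hippocampal age differences of the members was not tested.

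Among the gelatinases, Mmp2 was higher in heart than in hippocampus at both ages, and Mmp9 was not called on its brightest probe set. MMP2 cuts denatured collagen and basement membrane collagen and is made mainly by fibroblasts. Pup hearts read 11.38, 10.68 and 11.35 and pup hippocampi 8.83, 9.22 and 8.69. Adult hearts read 10.70 and 11.10 and adult hippocampi 8.56 and 8.39. Every heart sample was above every hippocampus sample. Hippocampus minus heart was -2.23 ± 0.26 in pups, or 4.68-fold (adjusted p = 0.000434), and -2.42 ± 0.32 in adults, or 5.36-fold (adjusted p = 0.00136). Its second probe set was called the same way at both ages (-2.96 and -1.52), and no sample left out ended a call. The age differences were -0.24 ± 0.29 in heart and -0.43 ± 0.29 in hippocampus (adjusted p = 0.611 and 0.342).

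Mmp9 read 9.74, 9.61 and 9.02 in pup hearts and 8.87 and 9.07 in adult hearts. In hippocampus it read 9.20, 8.99 and 8.55 in pups and 11.45 and 9.47 in adults. The adult hippocampi exceeded all pup hippocampi but were almost 2 apart, and the difference of 1.55 ± 0.51 had an adjusted p of 0.0712. The dimmer probe set of Mmp9 was lower in adult hippocampus than in adult heart (-1.41, adjusted p = 0.00597 over all probe sets), opposite in sign to the 1.49 of the brighter.

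Membrane-type matrix metalloproteinases are anchored to the cell surface, where MMP14 activates the precursor of MMP2. Of 4 such genes, Mmp14 and Mmp24 fell with age in hippocampus, beside 7.44% of all genes. Mmp14 read 14.84, 14.41 and 14.69 in pup hippocampi and 13.43 and 13.75 in adult hippocampi. Hearts read 12.98, 12.29 and 12.41 in pups and 13.15 and 12.58 in adults. Mmp14 was 4.25-fold higher in hippocampus than in heart in pups (2.09 ± 0.26, adjusted p = 0.000696), a call kept without any single sample, and 0.73 ± 0.32 higher in adults (adjusted p = 0.154). The fall with age of 1.06 ± 0.29 in hippocampus (adjusted p = 0.0407) was lost on leaving out any 1 of the 5 hippocampus samples (0.0614 to 0.224) and under quantile rescaling (0.0528). A dimmer probe set of Mmp14 read differently. It fell with age in heart (-2.31, adjusted p = 0.00891 over all probe sets), where the brighter gave 0.30, and was not called between pup tissues (-0.61, adjusted p = 0.399).

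Mmp24, a membrane-type protease of neurons, read 10.91, 11.37 and 10.73 in pup hippocampi and 9.92 and 9.07 in adult hippocampi (-1.51 ± 0.42, adjusted p = 0.0396). The call was lost on leaving out any 1 of the 5 hippocampus samples (0.0685 to 0.247). In heart the difference of -1.13 did not pass the test, whereas a dimmer probe set rose there from 8.57 to 11.04 (2.47, adjusted p = 0.00128 over all probe sets). Mmp16 and Mmp17, the remaining membrane-type genes, were not called on their brightest probe sets in any comparison. A dimmer probe set of Mmp16 rose with age in heart (1.47, adjusted p = 0.0237) and was lower in adult hippocampus than in adult heart (-1.63, adjusted p = 0.0207, both over all probe sets).

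Mmp7, Mmp12 and 7 further Mmp genes form a run of close neighbours on chromosome 9, between which other genes may lie. Their order is Mmp13, Mmp12, Mmp1b, Mmp3, Mmp1a, Mmp10, Mmp8, Mmp20 and Mmp7. Within this run Mmp12 and Mmp7 rose with age in heart, beside 11.2% of all genes. The remaining 7 had differences of -1.11 to 0.69, none called. MMP12 is the elastase of macrophages, and MMP7, matrilysin, is an epithelial enzyme that cuts many matrix and surface proteins. Mmp12 read 8.69, 9.06 and 8.75 in pup hearts and 10.21 and 9.50 in adult hearts, while hippocampi read 8.13 to 8.36 in pups and 7.39 and 7.85 in adults. The rise was 1.02 ± 0.28 (adjusted p = 0.0306), and was lost without pup heart replicate 1 (0.0727), pup replicate 3 (0.0605) or adult heart replicate 1 (difference 0.67, adjusted p = 0.23). In adults Mmp12 was 4.72-fold lower in hippocampus than in heart (-2.24 ± 0.30, adjusted p = 0.00153), a call kept without any single sample. The mean of 6 microglia and macrophage markers was 10.1 to 10.6 in pup hearts and 10.5 to 10.6 in adult hearts, and 10.0 to 10.2 in adult hippocampi. The mean does not describe each marker. None of the 6 was called for age in heart. Between tissues C1qb was called lower in hippocampus than in heart in both pups and adults, and the remaining 5 were not called. The part of these markers in the differences of Mmp12 was not tested.

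Mmp7 read 9.37, 9.90 and 9.75 in pup hearts and 11.19 and 10.36 in adult hearts (1.11 ± 0.32, adjusted p = 0.0402). It lost the call under both rescalings (0.0605 and 0.0633) and without pup heart replicate 1 (0.0978), pup replicate 3 (0.0637) or adult heart replicate 1 (difference 0.69, adjusted p = 0.287). Mmp19, a widely expressed secreted enzyme outside the run, was lower in adult hippocampi (8.03 and 8.60) than in adult hearts (9.69 and 9.94; -1.50 ± 0.40, adjusted p = 0.0284). That call was lost on leaving out any 1 of the 4 adult samples (0.0624 to 0.157). None of the 4 collagenases (Mmp13, Mmp1a, Mmp1b and Mmp8) was called by limma in any comparison, with 1 unadjusted p under 0.05 for age in heart (Mmp13) and 1 between pup tissues (Mmp1b).

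Promoters of the run share a short word. The word TGANTCA, read on both strands, is the core recognised by AP-1, the dimer of FOS and JUN proteins that drives many matrix metalloproteinase genes. It was searched in RefSeq promoters of 250 bases before and 50 after the transcript start (assembly GRCm38.p6), which were at hand for 37 of the 65 members. It was present in 11 of 42 member promoters (26.2%) and in 2565 of all 32851 promoters (7.81%). A GC box, GGGCGG, was present in 40.5% of the member promoters and in 35.7% of all, and by their letters these words cannot overlap. The word was found in 8 of the 9 genes of the run, and outside it only in Adam19, Adam1b and Adam25. The share among members therefore rests largely on this run of related neighbours, which are not independent, and is no result about the family. Their sites are shown because the genes share this word and their order on the chromosome, but not their pattern on the arrays. Each line is written 5′ to 3′ on the gene's strand with the word in capitals, and all but Mmp1b lie on the plus strand.
Mmp13, chr9:7272469-7272495: cccaaagtggTGACTCAtcactatcat
Mmp12, chr9:7347320-7347346: acatcaacagTGAGTCAgatagaggat
Mmp1b, chr9:7388103-7388129, minus strand: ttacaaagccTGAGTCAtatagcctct
Mmp3, chr9:7445766-7445792: gaagcaattaTGAGTCAgttttcgggt
Mmp1a, chr9:7464058-7464084: ttgtcaaccaTGAGTCAcatagcctct
Mmp10, chr9:7502269-7502295: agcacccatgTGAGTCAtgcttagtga
Mmp20, chr9:7628126-7628152: atttgagacaTGAATCAtcacttacag
Mmp7, chr9:7692017-7692043: agtgtgcaaaTGAGTCAcctatttcca

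The word starts 35 bases before the transcript start in Mmp13, 44 in Mmp12, 46 in Mmp3, 63 in both Mmp10 and Mmp7, 73 in Mmp1a, 93 in Mmp1b and 95 in Mmp20. It reads TGAGTCA in 6 of the 8 genes, TGACTCA in Mmp13, which is the same word on the opposite strand, and TGAATCA in Mmp20. Mmp7 and Mmp12, called as higher in adult heart, carry the same TGAGTCA as Mmp3, Mmp10, Mmp1a and Mmp1b, which were not called. A match describes these letters and is not a measured binding site.

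**Figure D3:**
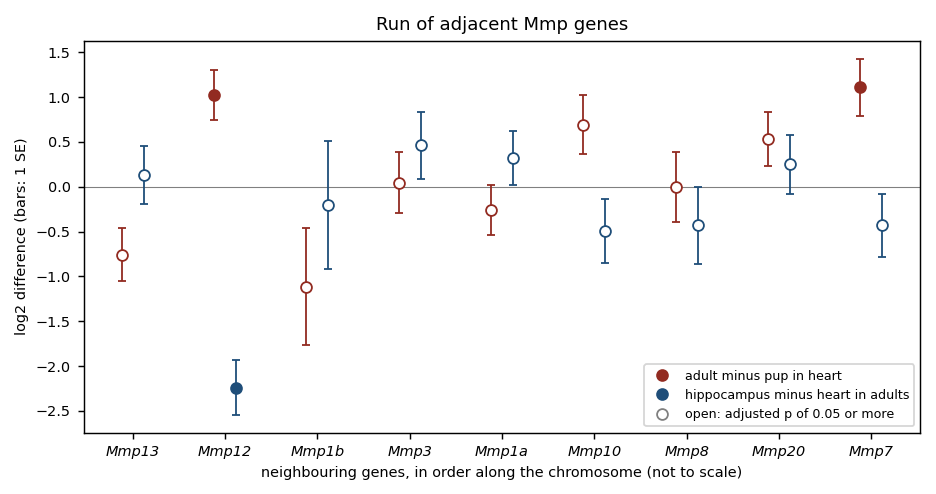
Log2 differences of the 9 closely placed Mmp genes in chromosomal order (not to scale), adult minus pup in heart and hippocampus minus heart in adults. Bars are 1 SE, and open circles have adjusted p of 0.05 or more. Only Mmp12 and Mmp7 are called for age in heart (1.02 and 1.11), and only Mmp12 is called between adult tissues (-2.24).

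Of the 4 inhibitors, only Timp4 was called, as higher in hippocampus at both ages. The share of all genes was 8.27% in pups and 9.46% in adults. None of the inhibitors was called between ages on its brightest probe set, with 1 unadjusted p under 0.05 in heart and 0 in hippocampus. Timp4 is known for its high expression in heart and brain. It read 9.80, 9.75 and 9.89 in pup hippocampi and 8.04, 8.48 and 8.55 in pup hearts. Adult hippocampi read 9.89 and 9.98 and adult hearts 8.65 and 9.09. Hippocampus exceeded heart in every sample, by 1.46 ± 0.21 in pups, or 2.75-fold (adjusted p = 0.00168), and by 1.06 ± 0.26 in adults, or 2.09-fold (adjusted p = 0.0219). The pup call was kept without any single sample, and the adult call was lost without adult hippocampus replicate 1 (0.0788), adult hippocampus replicate 2 (0.109) or adult heart replicate 1 (0.137). Its second probe set gave 0.72 and 0.60 without passing the test.

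Timp1, an inducible inhibitor, had the largest standard error of all members in heart and hippocampus between ages. Pup hearts read 11.04, 11.82 and 12.83, adult hearts 12.75 and 11.37, pup hippocampi 13.00, 11.46 and 13.21 and adult hippocampi 12.85 and 14.60. Each of the 4 groups overlapped with another, and standard errors of 0.68 to 0.83 left differences of up to 1.66 without a call. Timp3, the inhibitor that binds the matrix and blocks ADAM17, read 9.51, 10.37 and 11.87 in pup hearts and 12.23 and 12.13 in adult hearts (1.60 ± 0.57, adjusted p = 0.0812). Its 3 other probe sets gave -0.70 to 1.25 in heart, and the last of these was called (adjusted p = 0.0301 over all probe sets). Between adult tissues Timp3 probe sets were called in both directions, -2.25 and 2.16, so no direction can be given.

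Timp2, which also takes part in the activation of MMP2 by MMP14, read 14.19, 13.35 and 14.05 in pup hearts and 13.49 and 13.02 in adult hearts. In hippocampus it read 14.85, 14.58 and 14.39 in pups and 13.91 and 14.43 in adults. Ages overlapped in both tissues, with differences of -0.61 in heart (adjusted p = 0.217) and -0.43 in hippocampus (adjusted p = 0.393). Of its 5 other probe sets, 1 of nearly equal brightness fell from a mean of 14.9 to 11.5 in heart (-3.35, adjusted p = 0.000342) and from 15.6 to 13.5 in hippocampus (-2.08, adjusted p = 0.00245, both over all probe sets). A dimmer one rose in heart, from a mean of 7.88 to 9.12 (1.23, adjusted p = 0.0153 over all probe sets). Between tissues, the probe set of nearly equal brightness was higher in hippocampus in adults (1.94, adjusted p = 0.00248 over all probe sets). In pups its difference of 0.67 did not pass (0.114). A further Timp2 probe set was higher in hippocampus by 3.26 in pups and 2.40 in adults. Another was lower there in pups (-1.17, adjusted p = 0.0468 over all probe sets), with a difference of -1.26 in adults that did not pass (0.0562).

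**Figure D4:**
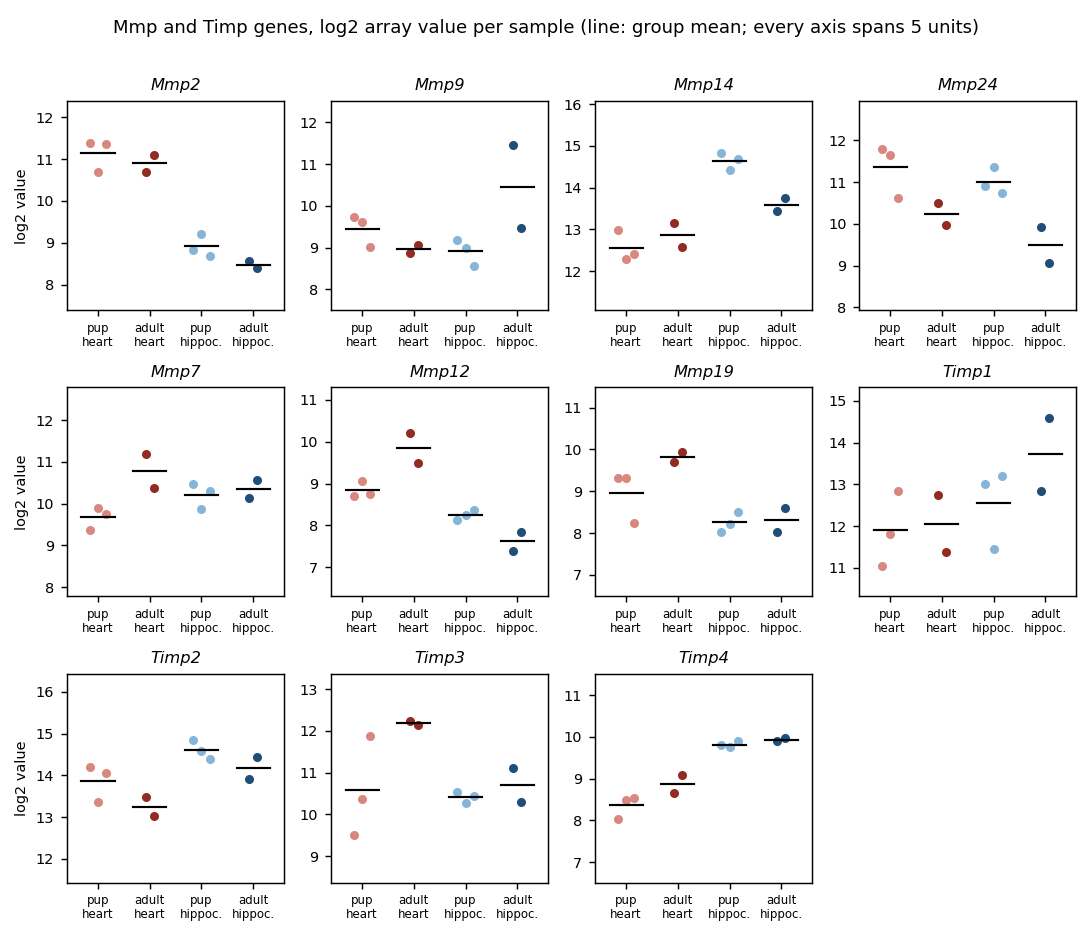
Log2 array values of 7 Mmp and 4 Timp genes in each sample, with the group mean as a line and 5 log2 units per vertical axis. Mmp2 is higher in heart and Timp4 higher in hippocampus in every sample, whereas the values of Timp1 spread from 11.04 to 14.60 across overlapping groups.

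The age difference itself was tested between the tissues. Heart minus hippocampus differed for 3 of the 65 genes, 1 higher and 2 lower (1.54% and 3.08%), against 2.45% and 1.23% of all genes. Adamts4 rose in heart by 2.13 and differed by -0.03 in hippocampus, a difference between tissues of 2.16 ± 0.35 (adjusted p = 0.0148). Adam21 differed by -0.06 in heart and rose by 3.16 in hippocampus (-3.21 ± 0.53, adjusted p = 0.0156). Adam12 differed by 0.33 in heart and rose by 2.00 in hippocampus (-1.68 ± 0.29, adjusted p = 0.0175). Adamts4 lost this call without adult hippocampus replicate 1 (0.075), adult hippocampus replicate 2 (0.0562) or adult heart replicate 2 (0.061). Adam21 lost it without adult hippocampus replicate 1 (0.0812), adult heart replicate 1 (0.0638) or adult heart replicate 2 (0.0683), and Adam12 on leaving out any 1 of the 4 adult samples (0.0575 to 0.0837) or without pup hippocampus replicate 2 (0.0518). For the remaining members, a call in a single tissue was not shown to differ from the other tissue on the brightest probe set.

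**Figure D5:**
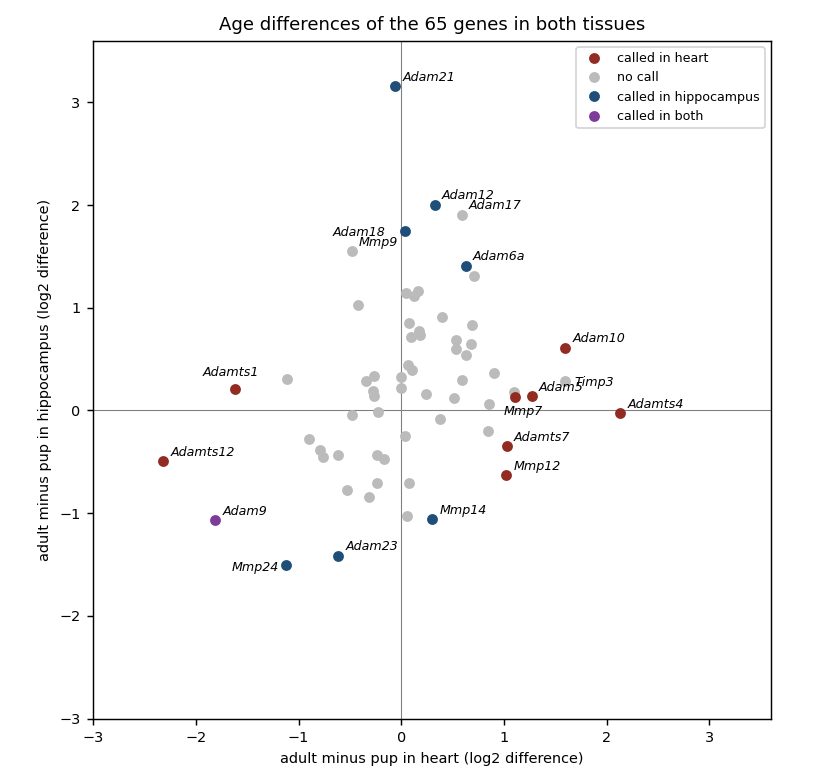
Each of the 65 genes is a point, with its adult minus pup log2 difference in heart on the horizontal axis and in hippocampus on the vertical axis; colours mark genes called in heart, in hippocampus or in both. Adam9 is the only gene called in both tissues (-1.81 and -1.07), and Adam21 (3.16) and Adamts4 (2.13) lie far out along a single axis.

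Of 41 listed activators, cofactors, other proteases and inhibitors that work with these enzymes, 39 were measured. Calls of single genes in this list, in that of substrates and in the marker lists were not checked under other settings. Neither samples left out nor other probe sets were tried for them. In heart 3 rose and 3 fell with age, beside 11.2% and 9.38% of all genes. Reck, a membrane anchored inhibitor of several matrix metalloproteinases, fell by 1.13 ± 0.21 (adjusted p = 0.00729), and Ece1, which makes endothelin, fell by 2.20 ± 0.38 (adjusted p = 0.00521). Plat, tissue plasminogen activator, rose by 1.98 ± 0.37 (adjusted p = 0.00682). Pzp, a broad protease trap, rose by 2.12 ± 0.27 (adjusted p = 0.00167). In hippocampus 5 rose and 2 fell, beside 8.63% and 7.44% of all genes. A2m, another protease trap, rose by 2.14 ± 0.38 (adjusted p = 0.00796). Furin, the convertase that removes the propeptide of many ADAM proteins and of MMP14, fell by 1.73 ± 0.35 (adjusted p = 0.0128). Rhbdf1, an iRhom needed for the transport of ADAM17, fell in both tissues, by 1.07 in heart (adjusted p = 0.0125) and 1.34 in hippocampus (adjusted p = 0.00693). List medians were 0.00 in heart to 2 decimals (7e-04) and 0.07 in hippocampus.

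Between tissues, 7 of these 39 genes were higher and 8 lower in hippocampus in pups, beside 8.27% and 7.43% of all genes. In adults 5 were higher and 2 lower, beside 9.46% and 10.2%. Tspan5, a tetraspanin that guides ADAM10 to the cell surface, was 20.3-fold higher in pup hippocampus (4.34 ± 0.47, adjusted p = 0.000271) and 12.9-fold higher in adult hippocampus (adjusted p = 0.0028). Pcolce, an enhancer of procollagen processing, was lower in pup hippocampus by a difference of -2.46 ± 0.25 (adjusted p = 0.000188). Its age difference was lower in heart than in hippocampus (-2.28 ± 0.40, adjusted p = 0.018), and that of Pzp was higher (1.83 ± 0.38, adjusted p = 0.0355).

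Of 25 listed substrates and partners 23 were measured, and in heart 1 rose and 5 fell, beside 11.2% and 9.38% of all genes, with a median of -0.33 beside 0.09. Fn1, fibronectin, fell 7.25-fold (-2.86 ± 0.27, adjusted p = 6e-04), Cd44, the hyaluronan receptor, fell 5.84-fold (adjusted p = 0.00198), and Cdh2, N-cadherin, fell 3.37-fold (adjusted p = 0.0268). Notch1 fell by 1.26 (adjusted p = 0.0037) and Dag1, dystroglycan, by 1.79 (adjusted p = 0.0171), while Egf rose by 1.14 (adjusted p = 0.0401). In hippocampus 2 rose and 4 fell, beside 8.63% and 7.44% of all genes. The proteoglycan brevican, Bcan, fell 5.80-fold (adjusted p = 0.00589), whereas the related versican, Vcan, rose by 1.35 (adjusted p = 0.0167) and neurocan, Ncan, by 0.89 (adjusted p = 0.0441). Ncan read 12.86, 12.63 and 12.32 in pup hippocampi and 13.33 and 13.67 in adult hippocampi. Its heart values were close to these, at 12.65, 12.60 and 12.72 in pups and 13.09 and 13.59 in adults, and it was not called between tissues. Reelin, Reln, fell by 2.04 (adjusted p = 0.0198), and Cd44 and Dag1 fell here too. Bcan exceeded its level in pup heart 69.9-fold in pup hippocampus (adjusted p = 9.58e-06) and 5.33-fold higher in adults (adjusted p = 0.00692). The shed surface proteins App and Prnp were higher in hippocampus at both ages, App by 3.07 in pups and 2.57 in adults and Prnp by 3.23 and 2.85 (adjusted p of 3.2e-05 to 0.00126).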

How the data were processed

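Hippocampus and heart RNA of C57/BL6 pups and adults was read on 14 single-colour arrays. According to the methods, the authors summarized probes by the upper decile with RMA 2.0 and then median centred and range scaled each array. The deposited log2 values show neither step. Values were used as deposited, without background or detection calls. Precision is limited by how few arrays each group has. Genes come from the platform annotation: 34958 probe sets name 1 gene, 932 name several and 9211 were unnamed here. Promoters and gene order are those of RefSeq (GRCm38.p6), and the arrays' own build was not given in the sources used here. Members named as neighbours or as a run could have a few other protein-coding genes between them.

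Groups, ages and replicates were taken from the labels. Technical arrays were averaged, which gave 10 samples. A limma model (version 3.58.1, R 4.3.3) with 1 mean per group was fitted to 18194 genes without an intensity trend, with 6 residual and 3.10 prior degrees of freedom, and gave 5 contrasts with Benjamini-Hochberg adjustment at 0.05. The test was checked on simulated data. No 2 arrays held identical values. Values within groups stand as single values, differences as estimate ± SE. The pairing of samples by replicate number, other scalings, other probe set rules, another variance model, the methods' t-test and the removal of each sample were tried. A sample left alone in its group was assumed to vary like the other groups.

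Named genes were Timp1 to Timp4, Adam10, Adam17, Mmp2, Mmp9 and Mmp14 and up to 25 other called members with the smallest adjusted p in any comparison. Other genes appear because they neighbour or resemble these and were chosen after their values were seen. The members, the lists of roles, partners and cell type markers and the rule were chosen with earlier results of these data known. The protein sequences were not analysed here.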

Additional observations from a re-analysis of the deposited data

Results flagged for a closer look

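The age difference of 3 genes differed between heart and hippocampus in the limma interaction test, with 2 to 3 samples per group. Adamts4 had a difference of 2.16, with all adult hearts above all other samples. For Adam21 it was -3.21, with both adult hippocampi above all other samples. For Adam12 it was -1.68, and the second probe set of Adam12 gave 2.01 (adjusted p = 0.122 over all probe sets). Adam21 has a single probe set, and the second probe set of Adamts4 gave 0.57 (adjusted p = 0.59). The part of RNA source in these differences was not tested.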

How the results depend on the processing

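Counts of called members were 9 (age in heart), 8 (age in hippocampus), 8 (tissues in pups), 15 (tissues in adults) and 3 (difference of the age differences). Leaving out each sample in turn gave 2 to 11, 2 to 5, 6 to 9, 7 to 10 and 0 to 4 of these, in the same order. With the most variable probe set per gene, the counts were 14 for age in heart, 5 for age in hippocampus and 23 for tissues in adults. With the 4 adult arrays as samples of their own, they were 24 for tissues in adults and 6 for the difference of the age differences. A fit of only the groups compared gave 5 for age in heart. The methods' t-test with Benjamini-Hochberg adjustment at 5% called 0 for age in heart, 4 for age in hippocampus, 4 for tissues in pups and 0 for tissues in adults, and at 0.1% it called 0 in each, where limma had 19, 23, 18 and 23 members at an unadjusted p under 0.05. These tests of 2 groups gave no value for the difference of the age differences. Apart from the replicate block, the counts were within 1.5 times under the other settings.

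Same-numbered heart and hippocampus samples of pups deviated together with r = 0.203, -0.092 and 0.002 and those of adults with -0.06 and -0.06, so the numbers were not taken to pair samples. With replicate number as a block, the counts were 6, 5, 7, 11 and 0.

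Of 43 called differences of named genes, 32 kept their call with the mean over probe sets, 38 with range scaling and 37 with quantiles, and none was kept under all 22 alternatives, since the t-test at 0.1% called nothing and the 3 differences between age differences were lost with the block. Range scaling moved the median of all genes in heart with age from 0.09 to -0.04, and no called difference of a named gene changed sign under either scaling. Reversals came only with another choice of probe set. With the mean over probe sets, Adam10 gave -0.0571 for age in heart, and Adam12 gave -0.51 between adult tissues and 0.16 for the difference of the age differences. With the most variable probe set, Adam12 gave -0.62 for age in hippocampus, -2.40 between adult tissues and 2.01 for the difference of the age differences. Under this setting Adamts12 gave 0.72 for age in heart and -1.96 between adult tissues, Mmp14 gave -2.31 for age in heart and -0.61 between pup tissues, Mmp24 gave 2.47 and 0.91 for age in heart and hippocampus, and Timp3 gave 2.16 between adult tissues.

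Some calls were kept by every alternative tried on them other than the t-test. For age these were Adam9 and Adamts4 in heart and Adam21 in hippocampus. Between tissues they were Adam23 and Mmp2 at both ages and Adamts15 and Timp4 in pups. In adults Adam5, Adamts4, Adamts7 and Mmp12 were also kept. Of these genes, Adam9, Adam21, Adamts15, Adam5, Adamts7 and Mmp12 have 1 probe set each. The mean over probe sets and the most variable probe set left their values unchanged, so these settings did not test them. Adam5 was absent from the setting with probe sets of 1 transcript only. Signal over background was not at hand for dim probe sets such as Adam6a.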
